A study of Arabidopsis thaliana with 34 samples.

Results

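The genes described here are the late group of a sub-zero acclimation series in Arabidopsis leaves: 117 of 22746 microarray probe sets, whose averaged signal stood clearly higher after 3 d at -3 °C and less so, or not at all, after 8 h and 1 d. Members were chosen from measured values. For each probe set the log2 signal was averaged in each group, the cold acclimated (CA) mean of the same accession was subtracted, and these changes were averaged over 3 accessions with equal weight. A member had an averaged change of at least 1 at 3 d, under 0.5 at 8 h and under 0.6 at 1 d. AT1G19530, GI, PDC2 and genes with ATG8, BGLU, XTH or WRKY symbols were left out by name, which removed 3 of the 120 probe sets that met the limits. Of the 117, 55 carry 1 gene in the array annotation, 4 carry several genes and 58 are unnamed there. All levels below are log2 signals of 1 probe set, and all changes are differences of log2 signals from the CA mean of the same accession unless stated otherwise.

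The plants were the accessions Col (Columbia-0), Rsch (Rschew) and Te (Tenela), raised in soil in a greenhouse with a 16 h day for 42 d. Every plant was then held at 4 °C for 14 d, so the controls were cold acclimated too and no warm-grown sample was analysed here. CA leaves came from intact plants in the light cycle at 4 °C. Leaves for the 8 h, 1 d and 3 d groups were detached, put in glass tubes with water and kept supercooled, without ice, at -3 °C in the dark. Low temperature, darkness, detachment and time in water therefore cannot be told apart in any change from CA. Each of the 34 ATH1 arrays held RNA of 3 leaves pooled from different plants, the submitters call the replicates independent, and there were 3 arrays per accession and condition except for Col at 8 h and at 3 d, with 2 each. RNA came from whole leaves, so a shift in the share of a cell type and a shift in RNA per cell cannot be told apart.

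Supercooled leaves in darkness lose light-driven carbon gain, and submerged or sealed tissue can run short of oxygen. Plants answer low oxygen through group VII ethylene response factors, which are degraded when oxygen is present and otherwise switch on fermentation genes and a set of small proteins of largely unknown function. Long cold is also known to alter cell wall pectins, wall peroxidases, lipid transfer proteins and the chaperones that keep proteins folded.

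The array medians lay between 5.97 and 6.22, and 5 leaf genes measured among the 14 listed markers (RCA, LHCB4.2, PRK, PSAN and PSBY) had CA levels of 10.14 to 12.58, while the pollen genes MGH3 and AGL104 stood at 3.94 and 3.36. All 5 leaf genes fell at 3 d by limma, by 0.92 (PSBY) to 2.61 (LHCB4.2) on the log2 scale, and their mean ran from 10.3 to 11.8 over the CA arrays and from 9.03 to 10.8 over the 3 d arrays. The 2 pollen genes, the guard cell gene FMA and the vascular gene SWEET11 did not pass the test at 3 d. The leaf genes thus moved with the 3 d groups in which the members stood high, and their part in the members' changes was not tested. The arrays fell into 2 sets by the bioC hybridization control, with 9 arrays at a mean of 7.05 and 25 at 8.34; the 9 hold only arrays numbered replicate 1 in the CA, 1 d and 3 d groups. The 3′ actin control probe sets read above the 5′ ones, a gap that grows as RNA breaks, by means that ran from 2.27 ± 0.22 (SD, 8 arrays) at 8 h to 2.58 ± 0.23 (9 arrays) at CA, with 2.36 ± 0.27 at 1 d and 2.52 ± 0.35 at 3 d. Its part in the results was not tested.

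Both Te arrays numbered replicate 1 at 1 d and 3 d stood against their labels. A score was taken over 200 other probe sets, chosen for the largest difference between 3 d and 1 d in Col and Rsch without any Te data. It is the mean log2 change from the accession's CA mean, with the sign turned for probe sets lower at 3 d than at 1 d in Col and Rsch. The score put the array labelled Te 1 d replicate 1 at 1.02, beside -0.79 and -0.72 for the other Te 1 d arrays. It put the array labelled Te 3 d replicate 1 at -0.64, beside 0.72 and 0.70. Over the 117 members the mean change was 1.36 on the array labelled Te 1 d replicate 1, against 0.21 and 0.27 on the other 1 d arrays, and 0.64 on the array labelled Te 3 d replicate 1, against 1.40 and 1.58. Labels were kept, and values without these 2 arrays are given beside those that rest on them. In Col the 3 d arrays had member means of 1.28 and 1.33, and in Rsch of 1.27, 1.11 and 1.2, all above every other array of those accessions.

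**Figure D1:**
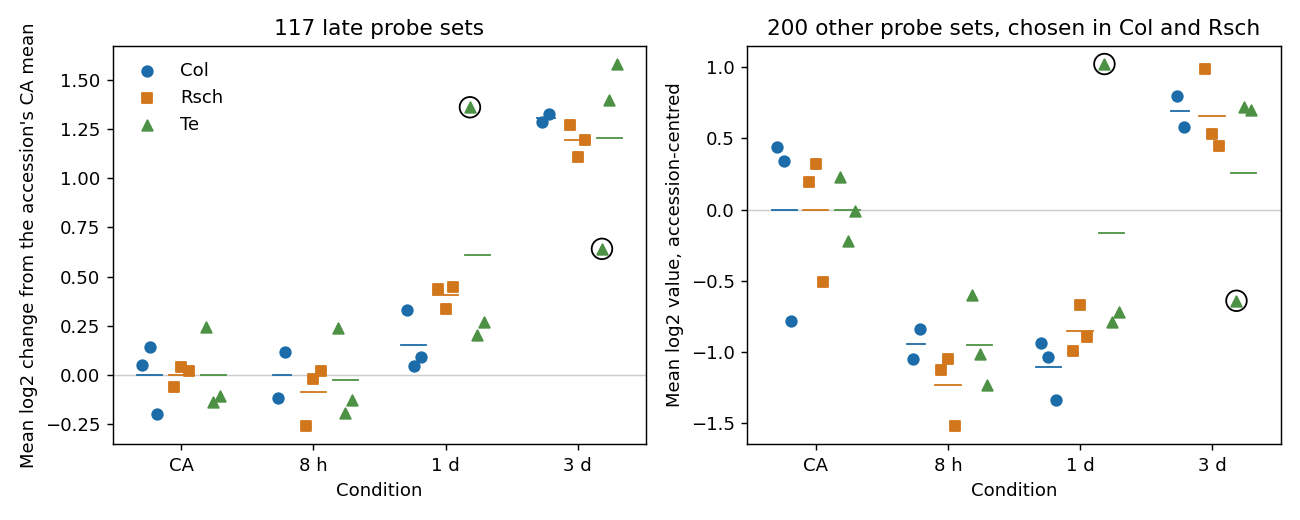
Left, mean log2 change from the accession's CA mean over the 117 members on each of 34 arrays (points, with bars for group means). Right, the same mean for 200 other probe sets chosen in Col and Rsch, with the sign turned for those lower at 3 d than at 1 d there. Circles mark the arrays labelled Te 1 d replicate 1 (1.36 left, 1.02 right) and Te 3 d replicate 1 (0.64 and -0.64), each of which lies with the other time's Te arrays or between the groups.

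At 8 h the averaged change of the members ran from -0.82 to 0.42 with a median of -0.04, and 66 of 117 were below 0. At 1 d it ran from -0.55 to 0.60 with a median of 0.44, where the median of all probe sets was -0.0014, and 88 members were at 0.3 or more, so most were above the CA level by then. At 3 d it ran from 1.00 to 2.06 with a median of 1.14, where the median of all 22746 probe sets was 0.03. These limits are set by the choice of members. Without the 2 Te arrays the median was 0.33 at 1 d and 1.23 at 3 d. By limma, a linear model fitted to all probe sets with Benjamini-Hochberg adjustment, 113 members had an adjusted p under 0.05 for a higher 3 d level, against 15.9% of all probe sets; since the same contrast chose them, this is no result about them. The named members that missed it, AT3G10040 and AT4G10270, are described with the low-oxygen genes.

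**Figure D2:**
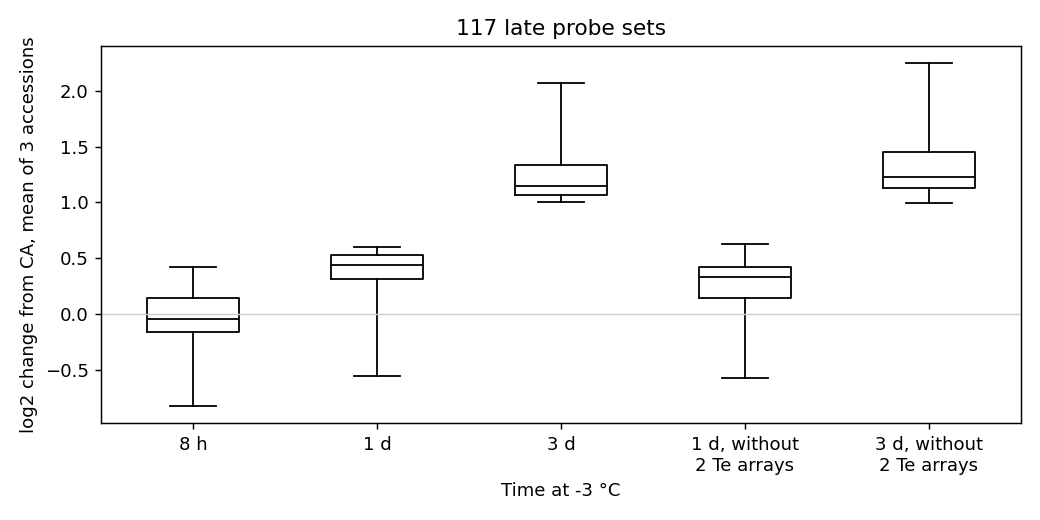
Log2 change from CA, averaged over Col, Rsch and Te, for the 117 members at 8 h, 1 d and 3 d, and at 1 d and 3 d without the 2 Te arrays labelled replicate 1. Boxes show quartiles, the inner line is the median and whiskers reach the lowest and highest member; the medians are -0.04, 0.44 and 1.14, then 0.33 and 1.23.

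Of the 117 members, 18 had a 3 d change of 1.5 or more. Just inside the 3 d limit were AT5G25820, AT5G09370, AT1G74840 and AT4G05070 at 1.00 to 1.02, and just outside it were AT2G37950, AT3G19660, AT5G18500 and AT4G33560 at 0.99 to 1.00. Near the 8 h limit, CCOAMT and AT2G15880 had 8 h changes of 0.37 and the non-member AT3G28200 had 0.50. Near the 1 d limit, AT2G43870 and AT1G52700 were inside at 0.60 and 0.59, and AT5G16960 and AT1G69160 were outside at 0.61. Membership therefore turned on small differences, and 33 of the 117 members met the rule in all 34 runs that left out 1 array.

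A check that the rule did not use was to apply its limits to the mean of 2 accessions and test the 3 d change in the third. The limits themselves had been set with all accessions known. Arrays with the same replicate number also varied together across accessions, with r over 0.1 in 84 of 128 pairs. The accession left out was therefore not fully independent of the other 2. The rule on Rsch and Te chose 64 probe sets, of which 16 (25%) rose in Col by limma, against 5.93% of all probe sets, with a median Col change of 1.00 and 59 above 0. The rule on Col and Te chose 148, of which 51 (34.5%) rose in Rsch against 4.1% of all, with a median of 0.96 and 146 above 0. The rule on Col and Rsch chose 163, of which 68 (41.7%) rose in Te against 5.07% of all, with a median of 1.01 and 157 above 0. The shares above 0 were 92.2% in Col, 98.6% in Rsch and 96.3% in Te, where 52.1%, 55.4% and 49.1% of all probe sets were above 0. Without the 2 Te arrays, 93 of these 163 (57.1%) rose in Te against 6.39% of all, with a median of 1.26. Most probe sets late in 2 accessions thus stood higher at 3 d in the accession left out, and between 25% and 57.1% of them passed the test there. That test covers the 3 d level, not the lateness. In the accession left out the median change at 1 d was 0.02 in Col, 0.41 in Rsch and 0.61 in Te. The Te value was above the limit of 0.6, and was 0.31 without the 2 Te arrays. At 8 h the medians were -0.15 in Col, -0.03 in Rsch and 0.03 in Te.

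The values by accession at 3 d come from the arrays that chose the members and are given as a description. The member medians at 3 d were 1.28 in Col and 1.19 in both Rsch and Te. At 1 d they were 0.16 in Col, 0.41 in Rsch and 0.61 in Te, the Te value resting in part on the array labelled Te 1 d replicate 1. Of the members, 116 were above 0 at 3 d in every accession and 36 reached 1 in every one, or 45 without the 2 Te arrays. Every Col 3 d array stood above every other Col array for 80 members, where 6.26% of all probe sets did so. The same held for 62 members in Rsch (3.19% of all) and 6 in Te (0.791% of all). Without the 2 arrays the Te count was 92 (9.95% of all). The choice of members sets these counts high, and nothing is read from their excess over all probe sets. The change in 1 accession rests on 2 or 3 arrays a side: of the 55 named members, the 3 d change moved by more than 1.5 times without 1 CA or 3 d array for 24 in Col, 11 in Rsch and 21 in Te. The order of the accessions for a single gene below is a description with that limit.

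The first group of named members holds genes of families tied to the cell wall. Families of genes without a symbol are given here from general knowledge, not from the array annotation, and the grouping was made after the members were known. Other genes of these families on the array were not counted. Nothing is therefore read from the size of this group or of those below. AT3G61490, of the polygalacturonase family that cuts pectin, had the highest averaged 3 d change of the named members. Its CA levels were 3.93, 4.28 and 4.2 in Col, 4.15, 4.16 and 4.61 in Rsch and 4.95, 3.91 and 4.05 in Te, and all arrays at 8 h lay between 3.59 and 4.07 with a median of 3.93. Its 3 d levels were 6.86 and 6.40 in Col, 6.46, 5.90 and 8.02 in Rsch and 4.42, 7.24 and 4.88 in Te. In Col and Rsch every 3 d array was above every other array of the accession, and in Te the groups overlapped, with the array labelled 1 d replicate 1 at 6.67 and 3 d replicate 1 at 4.42. The averaged change was 2.06 ± 0.36 (SE; 8 arrays at 3 d and 9 at CA), a 4.18-fold difference. The relatives AT2G43870 and AT1G02460 had 3 d changes of 1.14 ± 0.18 and 1.09 ± 0.30. The CA level of AT2G43870, at 3.69, lies below the dim level, the 40th percentile of all signals at 5.32. All CA arrays of AT3G61490 lay below it too. The same holds for AT5G19890, AT2G15880, AT5G61620, AT1G33055, AT5G66985, AT3G10040 and AT2G17850 below, and for GSTU25 in Rsch and Te. Their changes thus start from dim signals.

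Class III peroxidases, secreted enzymes that cross-link or loosen walls, gave 3 named members. AT5G19890 stood at 6.60 and 4.45 in Col, 5.16, 5.11 and 7.43 in Rsch and 3.81, 6.83 and 6.03 in Te at 3 d, against between 3.67 and 5.32 with a median of 3.86 over the 9 CA arrays. The 3 d arrays spread over more than 3 log2 units and overlapped the CA range, and the averaged change was 1.61 ± 0.41. AT2G37130 had a change of 1.42 ± 0.38 and AT4G33420 of 1.17 ± 0.31, highest in Rsch at 1.95. AT2G15880, a leucine-rich repeat extensin that ties wall and membrane together, stood at 5.35 and 6.17 in Col, 5.03, 6.03 and 4.70 in Rsch and 5.03, 5.08 and 6.38 in Te at 3 d. All its CA arrays lay between 3.60 and 4.50, below every 3 d array, and the averaged change was 1.47 ± 0.19. CCOAMT, a caffeoyl-CoA methyltransferase of phenolic synthesis, had 3 d changes of 0.57 in Te, 1.36 in Rsch and 1.71 in Col, and the Col value was 1.08 without Col CA replicate 3 and the Rsch value 0.82 without Rsch CA replicate 1. AT2G34510, a DUF642 wall protein, had 3 d changes of 1.47 in Te, 1.69 in Rsch and 0.32 in Col. Its Col value rested on Col CA replicate 3, which read 9.41 beside 6.46 and 6.63, and was 1.28 without it. Col 1 d replicate 3 was high too, at 8.41 beside 7.40 and 6.91, and Col at 3 d has no replicate 3. AT5G25820, an exostosin-like glycosyltransferase, had a change of 1.00 ± 0.27.

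Small secreted proteins formed a further group. PDF2.1, a plant defensin, stood at 10.33 and 10.93 in Col, 10.20, 10.60 and 10.53 in Rsch and 10.21, 10.15 and 9.81 in Te at 3 d. Its CA arrays read 8.39, 9.80 and 7.47 in Col, 9.09, 8.32 and 8.59 in Rsch and 9.76, 9.38 and 9.46 in Te. The 3 d arrays were above all CA arrays in each accession, and the change was 2.08 ± 0.57 (SE) in Col, 1.78 ± 0.51 in Rsch and 0.52 ± 0.51 in Te. AT2G10940, AT2G45180, AT1G62790 and AT5G09370 belong to the lipid transfer and seed albumin fold family, only some of whose members are known to carry lipids outside the cell. AT2G45180, with a CA level of 10.53, had a change of 1.36 ± 0.35, with 1.71 in Te, 1.33 in Rsch and 1.03 in Col. AT2G10940 had a change of 1.52 ± 0.43, and its Rsch 3 d arrays of 10.76, 7.68 and 8.28 included the single highest value of the gene. AT1G62790 had its lowest change in Col, at 0.60, and AT5G09370 had its highest change there, at 1.56.

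Regulators and signalling proteins were fewer. AT5G61620, a single-repeat MYB-like transcription factor, stood at 4.56 and 5.96 in Col, 5.22, 5.49 and 6.80 in Rsch and 5.20, 7.60 and 5.42 in Te at 3 d. All 9 of its CA arrays lay between 3.83 and 4.04, below every 3 d array. Its averaged 3 d change was 1.79 ± 0.29, with 2.16 in Te, 1.88 in Rsch and 1.32 in Col. At 1 d it already stood above all CA arrays in Rsch, at 4.23, 4.13 and 4.57, and in Te, at 6.18, 4.70 and 4.39. In Col it read 3.99, 4.15 and 3.89 at 1 d. AT1G74840, another MYB-like factor, dipped to -0.49 at 8 h before a 3 d change of 1.02 ± 0.24, and GT2, a trihelix factor that binds GT elements of promoters, had 1.18 ± 0.24. APK1A, a protein kinase, had a change of 1.15 ± 0.22 that lay between 1.02 and 1.23 over the accessions. PRN, a pirin that interacts with the G protein alpha subunit, had 1.26 ± 0.23. AT4G17245, a RING-type ubiquitin ligase, had an 8 h change of -0.63 and a 3 d change of 1.31 ± 0.29.

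AT3G62550, a universal stress protein, was bright throughout: its CA arrays read 10.66, 10.62 and 8.21 in Col, 11.95, 11.19 and 10.81 in Rsch and 11.04, 10.79 and 11.36 in Te. At 3 d they read 11.71 and 11.95, 12.51, 12.58 and 12.45 and 11.22, 12.76 and 12.50 in the same order. Col CA replicate 3 was far below the other Col arrays at CA, and the array labelled Te 3 d replicate 1 lay within the Te CA range. Col 1 d replicate 3 was low too, at 8.80 beside 10.37 and 10.32, and Col at 3 d has no replicate 3. The change was 1.1 in Te, 1.2 in Rsch and 2.00 in Col, and the Col value was 1.19 without Col CA replicate 3. Of the loci among the top 20 without a role given here, AT3G57780 had a change of 1.43 ± 0.25, AT5G57340 of 1.32 ± 0.36 and AT3G11760 of 1.23 ± 0.13, the last with little spread between accessions. AT1G24530, a WD40-repeat protein, had a change of 1.29 ± 0.41. Both members of the TIR-domain immune receptor family, AT5G46450 and AT4G09420, had changes of 1.11 ± 0.15 and 1.07 ± 0.17, in both cases highest in Col.

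**Figure D3:**
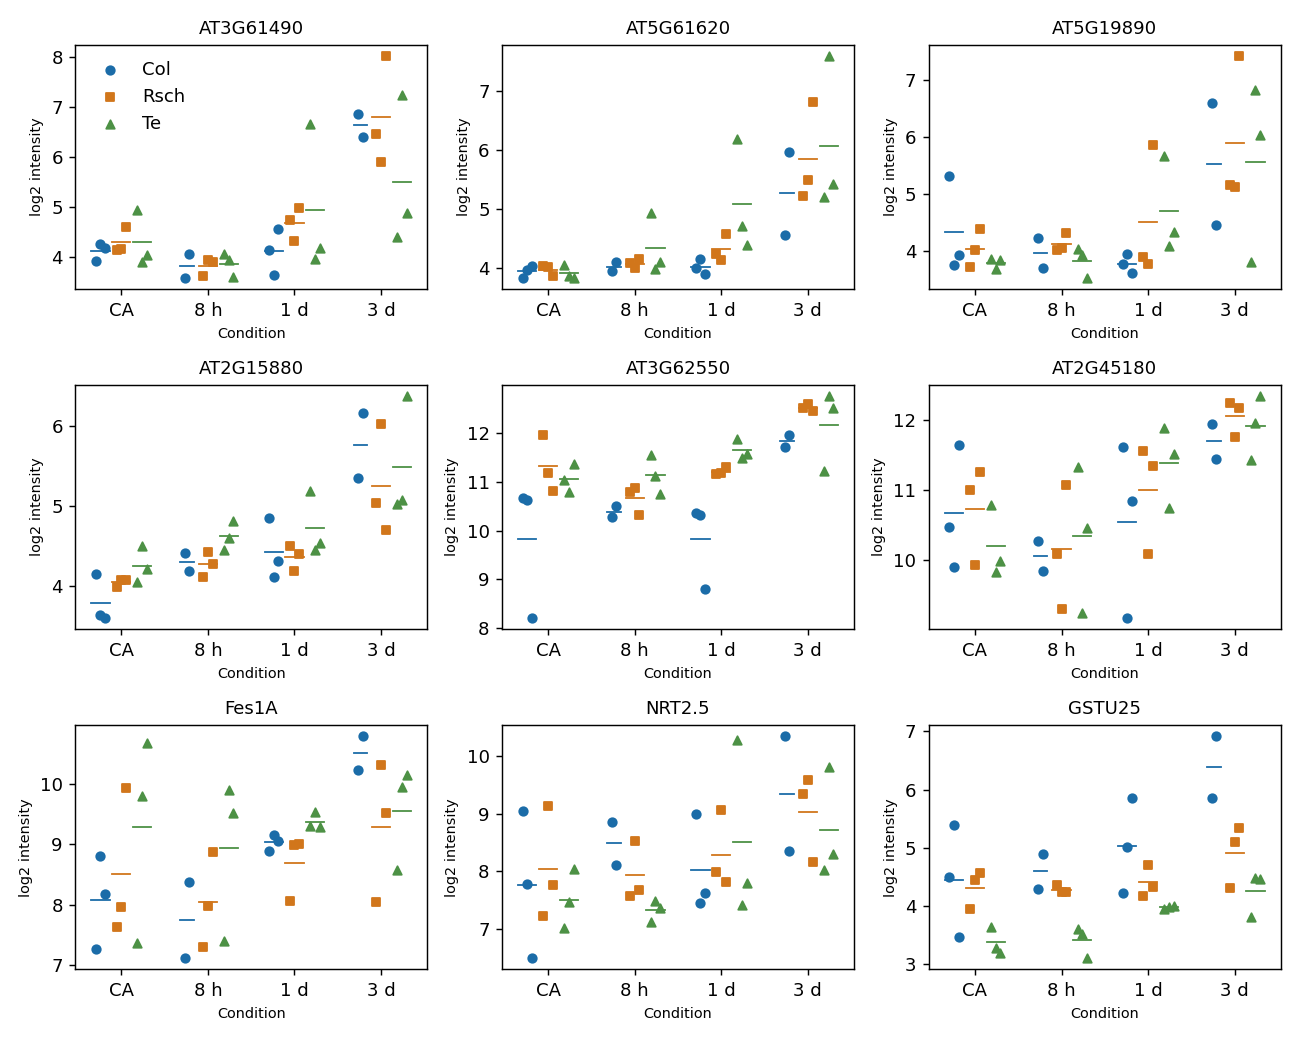
Log2 intensity of 9 members on all 34 arrays, by condition, for Col (circles), Rsch (squares) and Te (triangles); bars are group means. The Col and Rsch 3 d arrays of AT3G61490 lie between 5.90 and 8.02, above all their earlier arrays, whereas Fes1A and NRT2.5 overlap between times.

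Transporters came next. NRT2.5, a high-affinity nitrate transporter known for its rise in nitrogen-starved plants, stood at 10.35 and 8.35 in Col, 9.34, 9.58 and 8.16 in Rsch and 8.02, 9.81 and 8.30 in Te at 3 d. Its CA arrays read 9.04, 7.77 and 6.49, 7.23, 9.14 and 7.77 and 7.01, 7.46 and 8.04 in the same order, so the CA and 3 d arrays overlapped in every accession. The averaged change was 1.26 ± 0.43. OCT4, an organic cation and carnitine transporter, had 1.14 ± 0.24, with 0.99 in Te, 1.26 in Rsch and 1.18 in Col. AT4G15430, of the OSCA family of stretch-gated cation channels, had 1.46 ± 0.34, AT5G18840, a sugar transporter of the ERD6-like family, had 3 d changes of 1.53 in Te, 1.54 in Rsch and 0.34 in Col, and AT1G51610, a cation efflux protein, had 1.06 ± 0.26.

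Of 13 gene lists and 16 symbol families drawn up for cold, darkness and starvation, the folding list and the glutathione transferases held a member each, and no other list or family had a matched member. Entries were matched by gene symbol, so genes that carry only a locus or no name here could not be counted: 4 of the 29 lists and families had no measured gene and 14 had 1 or 2. The MYB-like AT5G61620 and AT1G74840, the RING-type AT4G17245 and the sugar transporter AT5G18840 carry only a locus and were not matched. The fixed low-oxygen list of 22 genes had only PDC2 among the named probe sets, which the rule left out by name and which rose by 0.78 at 3 d. Calls at 3 d within these lists come from the contrast that chose the members. Fes1A, a cochaperone that recharges the Hsp70 chaperone, was the member in the folding list. Its CA arrays were wide, at 7.26, 8.80 and 8.18 in Col, 7.62, 7.96 and 9.93 in Rsch and 7.36, 9.80 and 10.68 in Te. At 3 d they read 10.23 and 10.79, 8.04, 10.31 and 9.51 and 8.58, 9.94 and 10.15 in the same order. Only the Col groups did not overlap, and the averaged change was 1.16 ± 0.45, with 0.28 in Te, 0.78 in Rsch and 2.43 in Col. Its difference between accessions had an adjusted p of 1 by the limma F test. The other 3 measured genes of the list, AT5G48570, ATERDJ3B and CRT1b, had 3 d changes of -0.70, -0.42 and -0.29, and none passed the test. Fes1B, a relative of Fes1A outside the list, had a change of 1.04 ± 0.12 with a narrower spread, 0.74 in Te, 1.14 in Rsch and 1.25 in Col.

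GSTU25 was the member among 14 measured glutathione transferases, enzymes that conjugate toxic compounds and peroxides to glutathione. It stood at 5.85 and 6.92 in Col, 4.31, 5.10 and 5.34 in Rsch and 3.81, 4.49 and 4.47 in Te at 3 d, against 4.50, 5.39 and 3.46, 3.94, 4.44 and 4.56 and 3.64, 3.28 and 3.20 at CA. The CA and 3 d arrays did not overlap in Col and Te and did in Rsch, and the averaged 3 d change was 1.14 ± 0.23. The Te 1 d arrays, at 3.96, 3.98 and 3.99, lay above the array labelled Te 3 d replicate 1. Within the family 3 genes passed the test as higher and 3 as lower, where 15.9% of all probe sets were higher and 21% lower, with a median of 0.02. GSTU22 rose by 0.43 and ATGSTF13 by 0.31, while GSTU20 fell, at -1.88, as did GSTU18, at -0.89, and GSTL3, at -0.62.

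The last group is tied to low oxygen. AT4G10270 (a wound-responsive small protein), AT1G33055 and AT5G66985 (small proteins of unknown function), AT3G10040 (HRA1, a trihelix factor that damps the low-oxygen response) and AT2G17850 (a rhodanese-like protein) are known to rise in oxygen shortage in Arabidopsis. This set was recognised after the values were seen. AT4G10270 stood at 4.58, 5.67 and 12.59 on the Te 3 d arrays, 5.39 and 8.51 on the Col arrays and 8.93, 4.69 and 4.99 on the Rsch arrays. Over the 9 CA arrays it lay between 4.58 and 6.35 with a median of 5.05. In each accession 1 array was high, Te replicate 3, Col replicate 2 and Rsch replicate 1, and the other 5 arrays at 3 d lay inside the CA range or below it.

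AT1G33055 stood at 4.41, 4.70 and 10.14 in Te, 4.45 and 7.01 in Col and 6.16, 4.74 and 5.36 in Rsch at 3 d. HRA1 stood at 3.80, 3.93 and 9.95 in Te, 3.81 and 6.09 in Col and 5.55, 3.97 and 3.88 in Rsch. For both genes the same 3 arrays were the highest of their accession. AT5G66985 stood at 3.73, 4.05 and 9.68 in Te, 3.38 and 5.29 in Col and 3.95, 3.50 and 3.21 in Rsch. AT2G17850 stood at 4.90, 4.64 and 10.22 in Te, 5.09 and 6.39 in Col and 4.78, 4.80 and 4.87 in Rsch, where it differed little between the arrays. The 3 d groups of these 5 genes thus held arrays near the CA level beside arrays far above it.

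A single array decided these averages. Without Te 3 d replicate 3 the averaged 3 d change of AT4G10270 went from 1.61 ± 0.75 to 0.78, of AT1G33055 from 1.5 ± 0.50 to 0.88 and of AT5G66985 from 1.41 ± 0.50 to 0.77. That of HRA1 went from 1.23 ± 0.54 to 0.55 and that of AT2G17850 from 1.21 ± 0.45 to 0.61. Without it none of the 5 meets the rule. Without Col 3 d replicate 2, AT4G10270 had 1.09 and HRA1 had 0.85, and without Rsch 3 d replicate 1 they had 1.15 and 1.05. Over all 117 members, 7 had a 3 d change that moved by more than 1.5 times when 1 array at 3 d was left out, these 5 and the unnamed 250109_at and 253404_at, in each case with Te 3 d replicate 3.

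**Figure D4:**
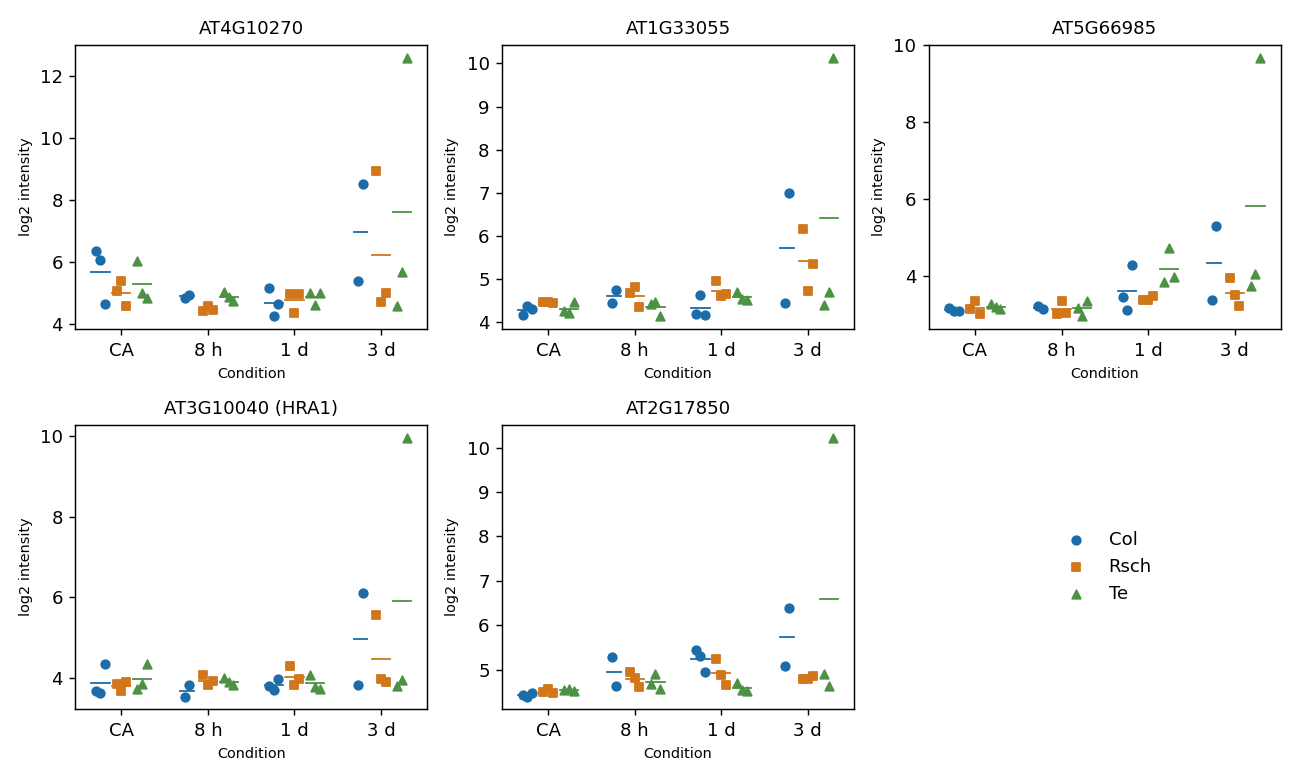
Log2 intensity of 5 low-oxygen members on all 34 arrays, by condition and accession; bars are group means. Te 3 d replicate 3 lies between 9.68 and 12.59 in all 5 panels, far above the other Te arrays, and the next highest point is a single Col or Rsch 3 d array.

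A wider list of 40 low-oxygen loci, written from general knowledge after these values were seen, had 20 measured genes, the 5 members and 15 others. Of the 15 others, 8 rose and 0 fell at 3 d by limma, where 15.9% of all probe sets rose. The counts were the same without Te 3 d replicate 3, when the 8 included AT1G19530 and PDC2, which the rule left out by name. The list was written with these values known, so nothing is read from its excess over all probe sets. A rise from CA to 3 d need not be late. Some of the 8, such as CML38, were high before 3 d. It read 11.26 and 11.31 in Col at 8 h and 10.34 and 10.83 at 3 d. Others were not, such as AT4G33560, with averaged changes of -0.17 at 8 h and 0.18 at 1 d. The median 3 d change of the 15 was 0.89, and 0.67 without Te 3 d replicate 3. Te 3 d replicate 3 was the highest Te 3 d array for 12 of these 15 genes, where it was so for 31.1% of all probe sets. Col 3 d replicate 2 was the higher Col array for 12 of the 15 (54% of all probe sets) and Rsch 3 d replicate 1 the highest Rsch array for 10 (37.1% of all). Some of them showed the same single-array pattern: AT5G10040 stood at 3.10, 3.12 and 9.34 on the Te 3 d arrays and AT3G27220 at 5.0, 4.96 and 7.79. AT3G03270 stood at 7.55, 7.19 and 10.75 on them. Others did not rest on it, such as AT1G26270, which rose by 1.09 without that array. The genes named here as examples were chosen after their values were seen. Over all probe sets, 29 (0.127%) had Te 3 d replicate 3 more than 2 log2 units above both other Te 3 d arrays, and 10 of them were members.

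The rule took the mean over accessions and not the difference between them, but a probe set high in 1 accession can meet an averaged limit through it alone. The tests of accession differences are therefore not fully independent of the choice of members. By the limma F test with adjustment over all probe sets, 1 member differed between accessions at 3 d, where 7 of 22746 probe sets did (0.0308%). At an unadjusted p under 0.05 there were 6 members (5.13%), against 3.75% of all probe sets. At 1 d 0 members passed (0.0264% of all), with 2 (1.71%, against 2.3%) at an unadjusted p under 0.05. At 8 h 0 passed (0.0044% of all), with 0 against 1.55% at an unadjusted p under 0.05. The 55 named members all had an adjusted p near 1 at 3 d, which does not show that their changes were equal.

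The member that passed, 266851_at, is unnamed in the annotation. It stood at 6.09 and 5.91 in Col at 3 d, against 3.31, 3.47 and 3.22 at CA. In Rsch it stood at 3.13, 3.44 and 3.25 at 3 d and 2.87, 3.11 and 3.01 at CA, and in Te at 3.33, 3.93 and 3.57 and 3.06, 3.42 and 3.18. The Col 3 d arrays were above all other arrays of the series, and those of Rsch and Te stayed below the dim level of 5.32 at all times. The change was 0.39 in Te, 0.27 in Rsch and 2.67 in Col, so it met the averaged limit, at 1.11, through Col, and its test is given as a description. The difference was -2.39 ± 0.34 (SE) for Rsch minus Col (limma adjusted p = 0.00286) and -2.28 ± 0.34 for Te minus Col (adjusted p = 0.00564). The F test gave an adjusted p of 0.0033, and 0.0511 without Col 3 d replicate 2. Array probes were designed on Columbia-0, so a sequence difference under the probes can lower the signal in Rsch and Te, and this was not tested. The unnamed 259120_at had the next lowest F test p among the members, with 3 d changes of 0.07 in Te, 0.75 in Rsch and 2.23 in Col and a limma F adjusted p of 0.294.

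**Figure D5:**
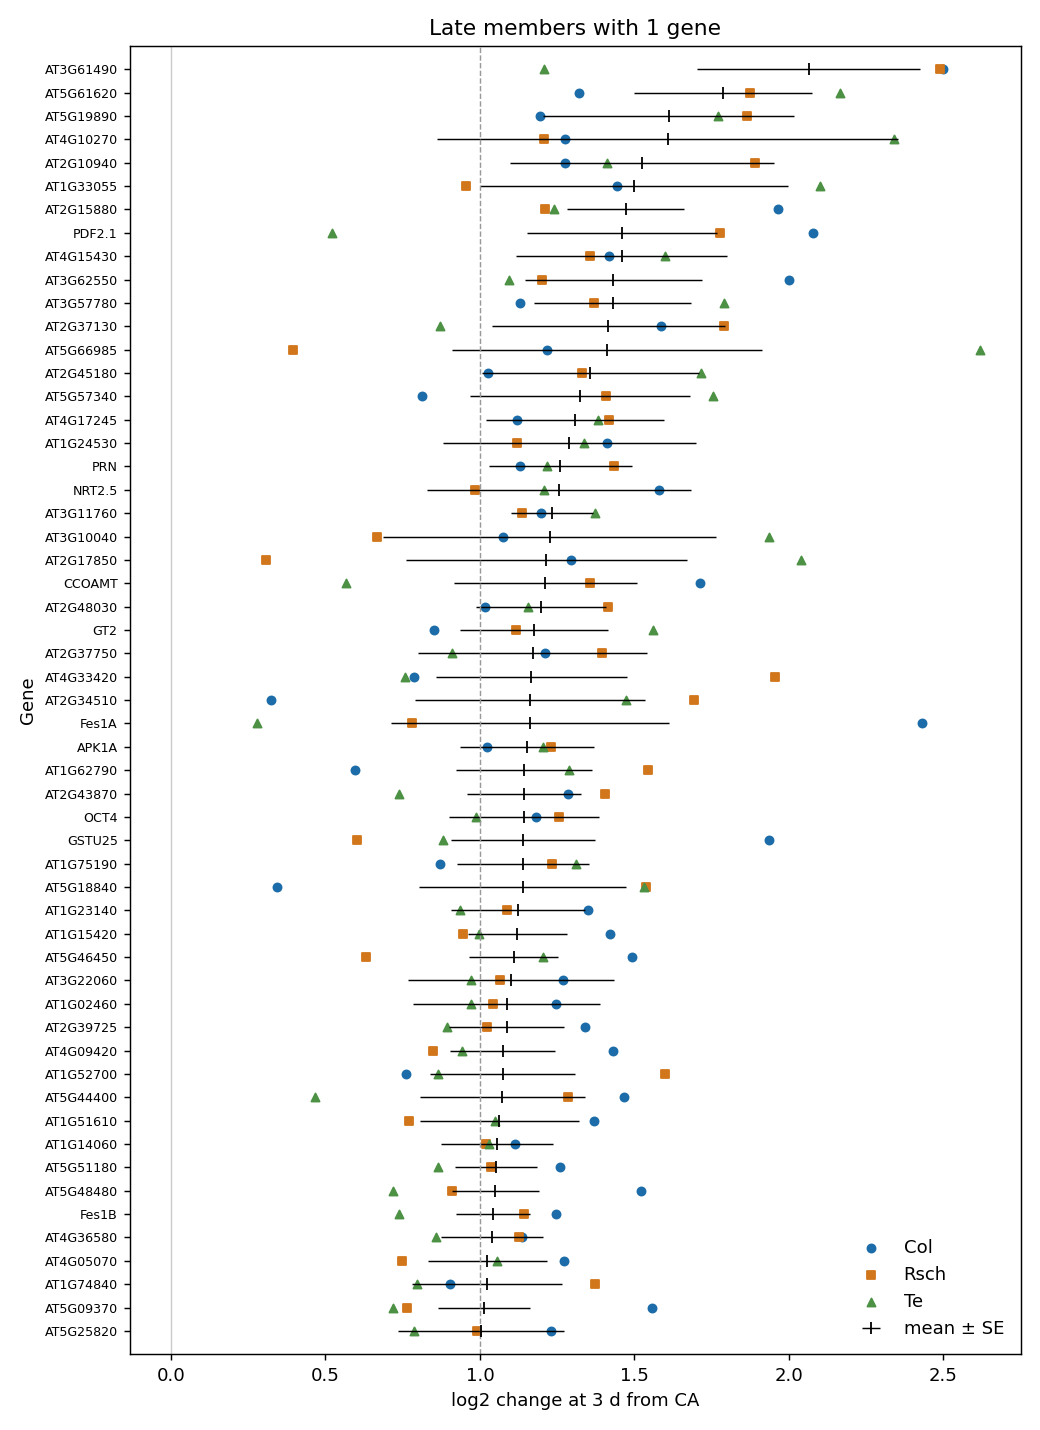
Log2 change at 3 d from CA in Col, Rsch and Te (points) and averaged over them with its standard error (ticks and lines) for the 55 members with 1 gene; the dashed line is the limit of 1. Accessions spread most for AT5G66985 (0.40 in Rsch, 2.62 in Te) and Fes1A (0.28 in Te, 2.43 in Col).

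The signal before sub-zero exposure also differed between accessions for some members, a smaller share than over all probe sets. Probes were designed on Columbia-0, so a sequence difference under them can lower the signal in Rsch and Te. This was not tested for the genes below. The limma F test on the CA level passed for 6 members (5.13%), where 8.36% of all probe sets passed, and 21 (17.9%) had an unadjusted p under 0.05 against 20.3%. The count ran from 2 to 14 over the alternatives tried. Both named genes among the 6 had low signals in Te. AT4G17245 stood at 6.46, 6.74 and 6.47 in Te at CA, 8.41, 8.30 and 8.76 in Col and 7.59, 8.10 and 8.96 in Rsch. No Te array reached the Col or Rsch range, the difference Te minus Col was -1.93 ± 0.48 (SE), and the F adjusted p was 0.016. At 3 d it stood at 7.54, 8.17 and 8.10 in Te, still below Col at 10.01 and 9.21 and Rsch at 9.80, 9.52 and 9.59, while its change was 1.38 in Te, 1.42 in Rsch and 1.12 in Col. AT3G22060, a cysteine-rich DUF26 secreted protein, stood at 4.88, 5.01 and 4.68 in Te at CA, 7.16, 6.34 and 6.94 in Col and 6.24, 7.60 and 6.82 in Rsch. Its difference Te minus Col was -1.95 ± 0.56 and its F adjusted p 0.024. Both calls were lost without Te CA replicate 3, at adjusted p of 0.0718 for AT4G17245 and 0.109 for AT3G22060. The unnamed 259040_at and 254250_at were lower in Te too, with differences of -1.93 and -1.90 against Rsch, 251956_at was higher in Te than in Col by 1.06, and 266884_at was lower than Col, with differences of -1.34 in Rsch and -1.12 in Te. Of these 4, only 259040_at kept its call whichever 1 array was left out: 254250_at reached an adjusted p of 0.117 and 251956_at of 0.112 without Te CA replicate 3, and 266884_at of 0.179 without Col CA replicate 1.

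The 58 unnamed members and the 4 with several genes had 3 d changes of 1.00 to 1.84 with a median of 1.12, and 13 of them reached 1.5. The 55 named members lay on all 5 nuclear chromosomes, 16, 11, 10, 7 and 11 of them on chromosomes 1 to 5, or 29.1%, 20%, 18.2%, 12.7% and 20%, where 25.5%, 16.3%, 20.3%, 14.5% and 22.3% of named probe sets lie. No 2 of them were neighbours on a chromosome in the RefSeq annotation. Replicates varied more for the members than elsewhere on the array: the median SD within a group was 0.46 at 3 d and 0.45 at CA, against 0.22 and 0.21 over all probe sets. A choice by changes between these same arrays can favour probe sets that vary, and the 3 d value includes the array labelled Te 3 d replicate 1. Nothing is read from this excess. The members had CA signals under the dim level of 5.32 in 27 cases (23.1%), against 39.5% of all probe sets.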

How the data were processed

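The authors deposited 1 log2 signal per probe set and array in a series table; the RMA method comes from the submitters' processing notes, its version is not given in the sources used here, and the log2 scale was inferred from the values (2.14 to 13.8). Of 22810 probe sets, 64 control sets were left out. Gene names came from the platform annotation, updated through RefSeq (TAIR10.1): 13436 probe sets with 1 gene matched, 77 kept their name, 503 carry several genes and 8730 are unnamed. No filter was applied to dim probe sets.

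One mean per accession and condition was fitted with limma 3.58.1 (R 4.3.3) on all 34 arrays, and p-values were Benjamini-Hochberg adjusted over 22746 probe sets with a threshold of 0.05. Changes averaged over accessions chose the members and were described with standard errors, not tested. F tests compared the accessions' changes and CA levels. The fit was tested on simulated data with independent errors. That simulation held no variation shared by replicate number and no exchanged arrays, so it does not cover error rates under them. Tables and plots used Python 3.11.15, pandas 2.3.3 and matplotlib 3.10.9. No depth exists for arrays; the number of arrays limits precision.

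The members and lists were chosen with earlier results of these data known. Named genes were the 20 members with the highest 3 d change, the called members of each F test, those next to the limits, list and family members with called relatives, and the 3 with the highest and the 3 with the lowest CA signal; other genes named by role were chosen after their values were seen. Replicate numbers were not treated as pairs. Alternatives covered normalization, dim and shared probe sets, array weights, blocks, limits and leaving out arrays. Promoter motifs were not analysed here.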

Additional observations from a re-analysis of the deposited data

Results flagged for a closer look

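The unnamed probe set 266851_at differed between accessions in its 3 d change, with a limma F adjusted p of 0.0033. Its change from CA was 2.67 in Col, 0.27 in Rsch and 0.39 in Te. It met the averaged limit of the late group through Col, so the test is not independent of that choice. The limma F adjusted p was 0.0511 without Col 3 d replicate 2. Rsch and Te signals stayed below the dim level of 5.32, and a sequence difference under the probes was not tested.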

How the results depend on the processing

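The rule gave 117 members, and 112 with accession and replicate as a random block, 142 with array weights, 130 with median centring, 122 with quantile normalization and 173 without the 2 doubted Te arrays. It gave 222 on the larger bioC set alone, 280 within Col, 72 within Te, 64 on the 2 accessions other than Col, 257 with a 3 d limit of 0.8 and 45 with 1.2. Leaving out 1 array gave 97 to 144. Median centring moved the all-probe median at 3 d from 0.03 to 0.13 and the member median from 1.14 to 1.24. Members whose 3 d change differed by accession numbered 1, 2 with the random block, and 0 to 2 without 1 array (0 without Col 3 d replicate 2, 2 without Col 3 d replicate 1). Members whose CA level differed by accession numbered 6, 12 with array weights, 14 with the replicate block, 11 without the 2 Te arrays and 2 to 10 without 1 array (2 without Te CA replicate 3, 3 without Te CA replicate 2, 10 without Te 1 d replicate 1); the causes were not tested. Replicate numbers were not taken as pairs in the main fit, although arrays of 1 accession with the same number often deviated together. They did so in 44 of 49 pairs (r over 0.1). The median r was 0.34 for them, 0.17 for the same number in different accessions (84 of 128 over 0.1), and -0.17 and -0.09 for different numbers, which the centring on group means pulls below 0. Of 34 arrays, 33 correlated best with an array of their own number, a hint from the data only. The main fit treated all arrays as independent, so its standard errors and p-values do not allow for variation shared by number. Col has no replicate 3 at 8 h and 3 d, so such variation is unbalanced in its changes from CA. Its part in the Col changes was not tested. The replicate block gave 113 members, 107 of them shared with the 117. Similar counts can hold other members: 84 were shared with median centring, 100 with array weights, 81 of 132 with the median of the accession changes, 24 within Te alone and 81 of 104 without Col CA replicate 3. The named members' 3 d changes ranged from 0.55 to 2.42 over 45 settings and kept their sign. Some moved far without 1 array, such as HRA1, from 1.23 to 0.55 without Te 3 d replicate 3. Of the 55 named members, 15 met the rule in all 34 runs that left out 1 array. A fit on the compared arrays alone gives no member count, and promoter motifs were not run. Under the dim level of 5.32, small changes are hard to measure.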
